A study of Mus musculus with 4 samples.

Results

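The genes followed here were 8 Toll-like receptors (Tlr1, Tlr2, Tlr3, Tlr4, Tlr6, Tlr7, Tlr9 and Tlr13), the co-receptor Cd14 and the adaptor Myd88, 10 genes of the 32285 in the count table. They were taken from a list by name, and each was followed across the cell types of the tumor infiltrate. Toll-like receptors are membrane proteins that recognize microbial products and products of damaged cells. TLR2, which pairs with TLR1 or TLR6 for bacterial lipopeptides, and TLR4, which recognizes lipopolysaccharide with the help of CD14, work from the cell surface, whereas TLR3, TLR7, TLR9 and TLR13 sit in endosomes and recognize double-stranded RNA, single-stranded RNA, unmethylated DNA and bacterial ribosomal RNA. MYD88 carries the signal of all of these receptors except TLR3, which uses TRIF (the product of Ticam1), toward NF-kB and interferon regulatory factors, and myeloid cells are the best known users of the pathway.

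Viable CD45+ cells, that is leukocytes, had been sorted from orthotopic tumors of EO771, a mouse mammary tumor cell line, grown in female mice to 1.5 cm3. The tumors came from 2 Csf1rfl/fl mice, whose Csf1r alleles are floxed and intact, and from 2 Lyve1CreCsf1rfl/fl mice, which carry the same floxed alleles together with Cre driven by Lyve1. Csf1r encodes the receptor for colony-stimulating factor 1, on which most macrophages depend. In this model Cre deletes Csf1r in any cell that has expressed Lyve1, which includes lymphatic endothelium as well as LYVE-1+ macrophages, and the ages of these mice were not given in the sources used here. Each of the 2 droplet runs (10x Chromium, 3′ chemistry) mixed 1 tumor from each genotype, marked with hashtag antibodies, so run number 1 or 2 below names the tumor within its genotype.

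The authors kept 28429 of 53361 barcodes, and these cells were used. Per tumor there were 4771 to 8699 cells with 27686362 to 56715743 unique molecular identifiers (UMIs, each standing for 1 captured transcript) and a median of 3721 to 4657 UMIs per cell. Scrublet, which scores simulated mixtures of 2 cells, called 25.5% of the cells of the Csf1rfl/fl run 1 tumor doublets and 12.5% to 16.2% in the others, and 60 barcode sequences occurred in both runs. Csf1r, the targeted gene, stood at 2.29 and 2.22 UMIs per 10000 in the monocytes of the Csf1rfl/fl tumors and at 1.51 in both Lyve1CreCsf1rfl/fl tumors. In gated C1q macrophages it was at 1.90 and 2.36 against 1.47 and 1.45, and in Arg1 macrophages at 1.40 and 1.56 against 0.946 and 0.841. Where its counted 3′ end lies relative to the deleted part was not given in the sources used here, so these values do not check the deletion. Lyve1, whose promoter drives Cre, had 0 UMIs in monocytes of every tumor, 0 to 2 per tumor in gated C1q macrophages and 0 to 12 in Arg1 macrophages.

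Cells were given a type by counts of lineage markers, none of which is a gene followed here, and 22180 cells (78.0%) were given 1 type. The gates of Cd209a dendritic cells, Arg1 macrophages and monocytes were applied last, in that order. A cell of an earlier gate could thus also hold enough markers for the monocyte gate. Neutrophils (5837 cells) carried a median of 7 of their 8 markers, monocytes (3012 cells) 5 of 7, C1q macrophages (1619) 4 of 8, cDC1 (344), the conventional dendritic cells that cross-present antigen, 4 of 5, mature dendritic cells (1599) 4 of 6, plasmacytoid dendritic cells (470) 5 of 6, NK cells (1357) 4 of 6 and T cells (6735) 5 of 5. CD8 T cells (2705) and regulatory T cells (1958) are subsets of the T cells. Arg1 macrophages (586) and Cd209a dendritic cells (399) carried a median of 2 markers, and are named by the gene that leads their gate only. Both also carried monocyte markers, a median of 4 of 7 in Arg1 macrophages (48.5 UMIs per 10000, against 18.4 for their own list) and 3 of 7 in Cd209a dendritic cells (45.6 against 9.04). C1q macrophages carried a median of 4 of 7 as well, at 43.9 UMIs per 10000 against 39.3 for their own list. The part of the monocyte markers in the results was not tested. The stromal or tumor gate (150 cells) is not a leukocyte population. A level below is the number of UMIs of a gene per 10000 UMIs, summed over the cells of a type in a tumor. Of the 399 Cd209a dendritic cells 287 lay at the lowest number of markers the gate took. With a stricter gate each gene followed here had a lower mean level in this type. Myd88 went from 1.33 to 1.01 and Cd14 from 0.289 to 0.175. Levels were compared across cell types within a gene and not between genes. In such sums, fewer expressing cells and less RNA per cell cannot be told apart.

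By the GENCODE vM21 annotation of mm10 all 10 are protein-coding genes, and the counts come from reads near their 3′ ends. Of the surface receptors, Tlr1 lies at chr5:64924679-64933563 and Tlr6 at chr5:64952031-64960097, both on the minus strand, Tlr2 at chr3:83836272-83841767 on the minus strand and Tlr4 at chr4:66827584-66930284 on the plus strand. Of the endosomal receptors, Tlr3 lies at chr8:45395665-45411080 and Tlr7 at chrX:167304929-167330558 on the minus strand, and Tlr9 at chr9:106222598-106226883 and Tlr13 at chrX:106143204-106160493 on the plus strand. Myd88 lies at chr9:119335934-119341411 on the minus strand. The neighbors Tlr1 and Tlr6 share 289 stretches of 90 bases (8.78% of those of Tlr1 and 7.89% of those of Tlr6), so that some reads of one could have been lost or counted for the other, and no other pair of the 10 shares one. Exons of Myd88 overlap those of Acaa1a and exons of Tlr3 those of Gm45542, both on the opposite strand, and whether the counting used strand was not given in the sources used here.

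Promoter windows from RefSeq (GRCm38.p6, 250 bases before to 50 after a start site) were matched for 7 of the 10 genes, Tlr4, Tlr7 and Cd14 being named only. They were searched on both strands for GAGGAAGT, a core bound by PU.1, for GAAANNGAA, a form of the repeat bound by interferon regulatory factors, and for GGGANTTCC, a form of the NF-kB site. These stood in 3.11%, 8.53% and 1.69% of 32544 windows of the same length. The 3 windows below are shown because they belong to the adaptor and to a pair of receptors that work together and stood highest in neutrophils, and because each holds a match, which is marked in capitals. They are printed 5′ to 3′ on the strand of the gene (minus in each case) up to the base before the start site, which spans chr9:119340019-119340268 for Myd88, chr3:83841609-83841858 for Tlr2 and chr5:64959167-64959416 for Tlr6.
Myd88: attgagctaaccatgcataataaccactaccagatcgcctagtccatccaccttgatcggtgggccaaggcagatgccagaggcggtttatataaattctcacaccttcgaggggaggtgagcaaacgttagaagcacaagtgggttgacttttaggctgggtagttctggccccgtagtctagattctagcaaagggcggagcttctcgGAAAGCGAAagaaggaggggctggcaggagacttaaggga
Tlr2: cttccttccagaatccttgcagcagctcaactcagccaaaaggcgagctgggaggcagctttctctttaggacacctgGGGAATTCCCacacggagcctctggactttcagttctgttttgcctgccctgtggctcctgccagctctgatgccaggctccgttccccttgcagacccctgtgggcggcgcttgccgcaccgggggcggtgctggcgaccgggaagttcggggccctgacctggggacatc
Tlr6: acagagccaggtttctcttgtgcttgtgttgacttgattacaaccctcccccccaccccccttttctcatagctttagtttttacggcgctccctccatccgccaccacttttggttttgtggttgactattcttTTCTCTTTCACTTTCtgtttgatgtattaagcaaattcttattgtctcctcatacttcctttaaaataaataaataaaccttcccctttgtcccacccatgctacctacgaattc
The capitals mark GAAANNGAA beginning at position -40 for Myd88 (counted from the start site at 0), 2 overlapping copies of GGGANTTCC on opposite strands of Tlr2, the first beginning at position -172, and 2 overlapping copies of GAAANNGAA on the other strand of Tlr6, the first beginning at position -115. A second Tlr6 window, a second Tlr1 window and those of Tlr3 and Tlr13 held none of the 3 letter strings. One window of Tlr1 held GAGGAAGT at position -23 and that of Tlr9 held it at position 10. A match is a run of letters and not a measured site.

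**Figure D1:**
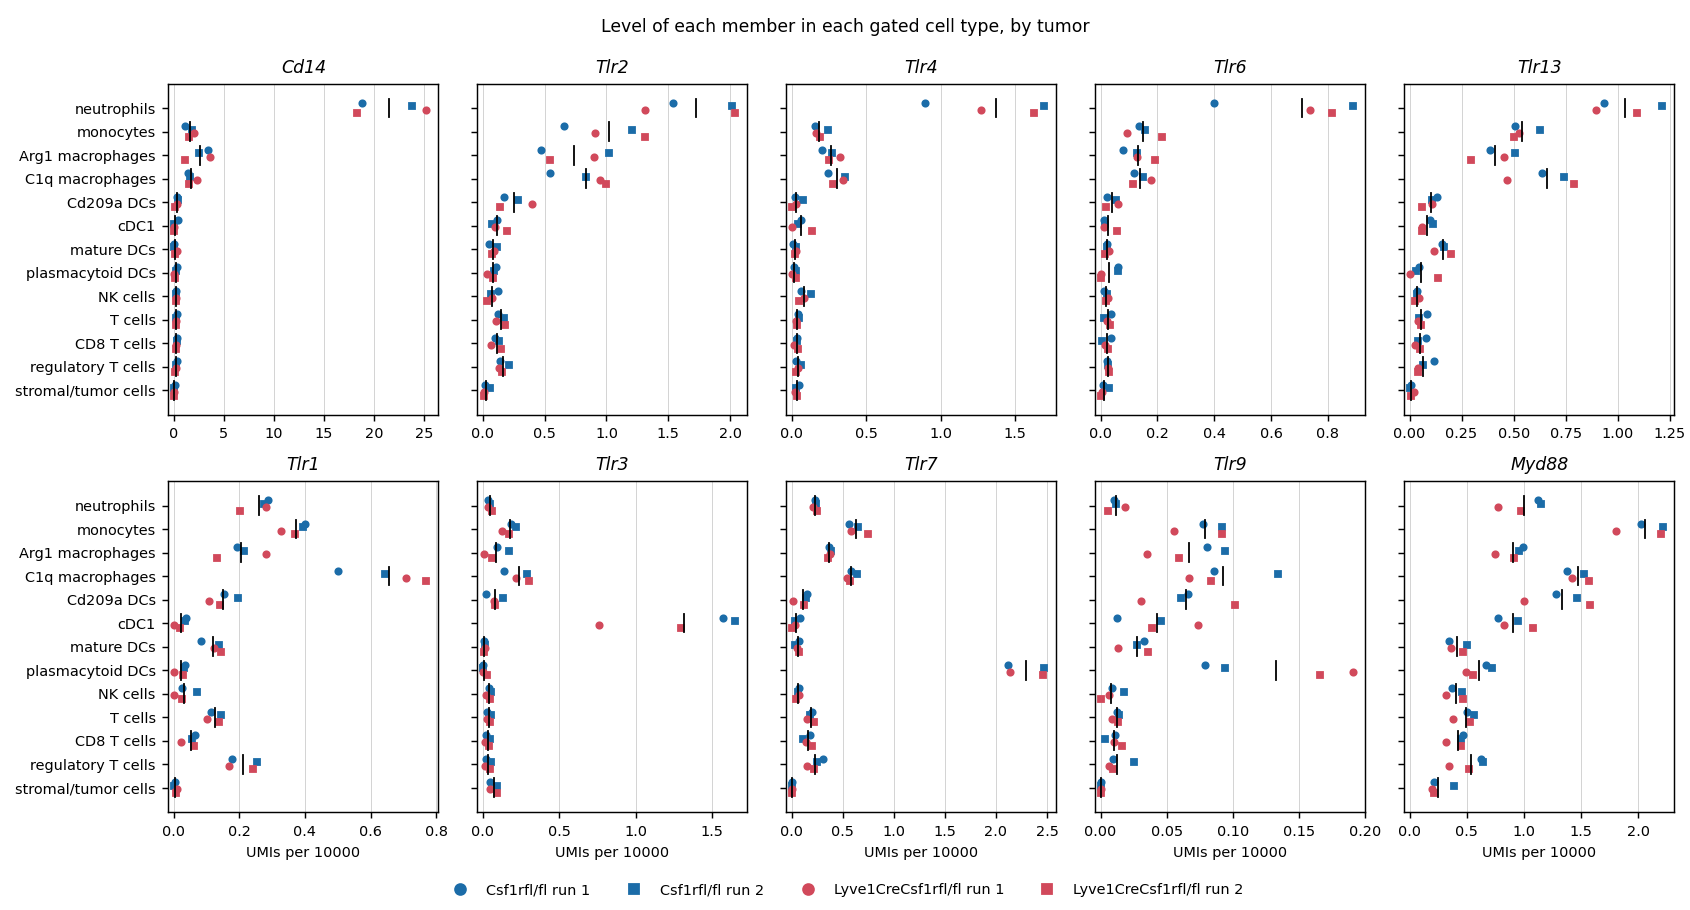
Level of each gene (UMIs per 10000) in each gated cell type, with 1 point per tumor and a black line at the mean of the 4 tumors. Cd14, Tlr2, Tlr4, Tlr6 and Tlr13 have their highest mean in neutrophils, Tlr3 in cDC1, Tlr7 and Tlr9 in plasmacytoid dendritic cells, Tlr1 in C1q macrophages and Myd88 in monocytes.

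The lipopolysaccharide co-receptor Cd14 (chr18:36725067-36726798, minus strand) was foremost a neutrophil transcript in these tumors. Its level in neutrophils was 18.8 in run 1 and 23.8 in run 2 for Csf1rfl/fl, and 25.2 and 18.4 for Lyve1CreCsf1rfl/fl, with a mean of 21.5 ± 3.48 (SD, n = 4). In Arg1 macrophages, next in order, it was 3.39, 2.56, 3.63 and 1.12 in the same order of tumors, with a mean of 2.68 ± 1.13 (SD, n = 4). Of the 586 Arg1 macrophages 426 lay at the lowest number of markers the gate took, and with a stricter gate the means were 4.43 for Cd14, 0.425 for Tlr4 (0.263 with the gate as used) and 0.280 for Tlr6 (0.132). All 4 neutrophil values lay above every value of any other type, and neutrophils held 67.1% of all Cd14 UMIs of the kept cells. C1q macrophages (1.73 ± 0.432, SD, n = 4) and monocytes (1.62 ± 0.356, SD, n = 4) followed, and the ranges of Arg1 macrophages, C1q macrophages and monocytes overlapped.

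RNA freed from broken cells can enter other droplets, and Cd14 was therefore set beside S100a8 and S100a9, the calprotectin genes that neutrophils make in bulk. Cd14 stood at 1.32 to 2.11 UMIs per 100 S100a8 and S100a9 UMIs in neutrophils. In monocytes it stood at 10.9 to 26.0 and in C1q macrophages at 27.0 to 52.1, which is above that of neutrophils in every tumor. In T cells, which should lack Cd14, the level was 0.324, 0.280, 0.254 and 0.214, or 6.0 to 9.88 per 100 S100a8 and S100a9 UMIs, and without the doublets the ratio was 2.56 to 3.47 and the mean level 0.0939. The ratio of T cells was thus also above that of neutrophils, so it does not by itself separate freed RNA from expression, and the part of freed RNA in the levels outside neutrophils was not tested.

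The other receptors of the cell surface also had their highest mean in neutrophils, with Tlr1 as the exception. Below neutrophils the order of their means was not that of Cd14. Tlr4, the lipopolysaccharide receptor, stood in neutrophils at 0.892 and 1.69 in the Csf1rfl/fl tumors and at 1.27 and 1.62 in the Lyve1CreCsf1rfl/fl tumors, a mean of 1.37 ± 0.368 (SD, n = 4) against 0.307 ± 0.0532 (SD, n = 4) in C1q macrophages. The lowest neutrophil value was thus above every macrophage value, while C1q macrophages overlapped with Arg1 macrophages and these with monocytes. Tlr6 stood in neutrophils at 0.398, 0.888, 0.739 and 0.815, a mean of 0.710 ± 0.216 (SD, n = 4) against 0.151 ± 0.0514 (SD, n = 4) in monocytes. These groups did not overlap either, and neutrophils held 53.8% of the Tlr4 UMIs and 49.3% of the Tlr6 UMIs.

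Tlr2, which takes part in lipopeptide recognition with either partner, was spread more widely. Its level was 1.54, 2.01, 1.31 and 2.04 in neutrophils (mean 1.72 ± 0.360, SD, n = 4), and 0.661, 1.20, 0.908 and 1.31 in monocytes (mean 1.02 ± 0.294, SD, n = 4). Neutrophils were above monocytes within every tumor, but the ranges over tumors overlapped, and both types were lower in run 1 than in run 2 in both genotypes. C1q macrophages (0.831 ± 0.201, SD, n = 4) and Arg1 macrophages (0.734 ± 0.265, SD, n = 4) overlapped with monocytes.

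Tlr1, the other partner of TLR2, stood highest in C1q macrophages. It was at 0.50 and 0.645 in the Csf1rfl/fl tumors and at 0.708 and 0.768 in the Lyve1CreCsf1rfl/fl tumors, a mean of 0.655 ± 0.115 (SD, n = 4). Monocytes, at 0.399, 0.394, 0.328 and 0.370, lay wholly below. Within the T cells, Tlr1 was at 0.211 ± 0.0436 (SD, n = 4) in regulatory T cells and at 0.0664, 0.0565, 0.0238 and 0.0607 in CD8 T cells, and the lowest value of the regulatory T cells was 0.169. Without the doublets the mean in CD8 T cells went from 0.0518 to 0.0264 and that in regulatory T cells from 0.211 to 0.202. Neighbors in the order below neutrophils (0.261 ± 0.0387, SD, n = 4), that is regulatory T cells and Arg1 macrophages, were not separated by their ranges.

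Among the endosomal receptors, Tlr3 marked cDC1. Its level there was 1.57 and 1.65 in the Csf1rfl/fl tumors and 0.761 and 1.29 in the Lyve1CreCsf1rfl/fl tumors, with a mean of 1.32 ± 0.402 (SD, n = 4) on 62 to 288 UMIs per tumor. The next type, C1q macrophages, was at 0.143, 0.288, 0.216 and 0.301, so that the lowest cDC1 tumor was still above the highest macrophage value. In plasmacytoid dendritic cells Tlr3 had 0 UMIs in 3 of 4 tumors, and in mature dendritic cells it had 1 to 4 UMIs per tumor.

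Tlr7, the receptor for single-stranded RNA, marked plasmacytoid dendritic cells. It was at 2.11, 2.47, 2.13 and 2.46 in the 4 tumors, a mean of 2.29 ± 0.197 (SD, n = 4), against 0.633 ± 0.0856 (SD, n = 4) in monocytes and 0.585 ± 0.0425 (SD, n = 4) in C1q macrophages. The plasmacytoid values lay close together and did not overlap with those of monocytes, which in turn overlapped with C1q macrophages. The 470 plasmacytoid dendritic cells held 9.61% of the Tlr7 UMIs, and monocytes held 19.2%. The plasmacytoid gate also carried B cell markers at 19.3 to 28.8 UMIs per 10000, with 2 of the 5 markers at 0, and monocyte markers at 87.8 to 95.8, and their part in these levels was not tested.

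Tlr9, the DNA receptor, was sparse everywhere. In plasmacytoid dendritic cells it had 9, 3, 5 and 6 UMIs in the 4 tumors, or levels of 0.0790, 0.0938, 0.191 and 0.166 with a mean of 0.132 ± 0.0543 (SD, n = 4). C1q macrophages (0.0924 ± 0.0287, SD, n = 4), monocytes and Arg1 macrophages overlapped with that range, so at this depth the types at the top of the order could not be told apart. Neutrophils had 1 to 10 UMIs per tumor, a mean level of 0.0114 ± 0.00510 (SD, n = 4), or 0.00544 without the doublets. For Tlr7 the mean in neutrophils was 0.232, and 0.144 without the doublets.

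Tlr13, which in mice recognizes bacterial ribosomal RNA, was again highest in neutrophils but was spread over the myeloid types. Neutrophils held 32.3% of its UMIs. It was seen in 22.3% of neutrophils, 31.3% of C1q macrophages, 22.5% of Arg1 macrophages and 22.2% of monocytes. Neutrophils had the fewest UMIs per cell of these types, and in cells thinned to 2000 UMIs the shares were 17.8%, 13.6%, 11.6% and 9.95%. Neutrophils were at 0.934, 1.21, 0.894 and 1.09 (mean 1.03 ± 0.147, SD, n = 4), and C1q macrophages at 0.637, 0.740, 0.470 and 0.789 (mean 0.659 ± 0.141, SD, n = 4). The 2 groups did not overlap, although the gap between 0.894 and 0.789 was smaller than either SD. Monocytes (0.539 ± 0.0578, SD, n = 4) and Arg1 macrophages (0.410 ± 0.0911, SD, n = 4) followed, and monocytes overlapped with C1q macrophages and Arg1 macrophages with monocytes. Mature dendritic cells, at 0.119 to 0.201, lay wholly below Arg1 macrophages, whose lowest tumor was at 0.295.

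Myd88, the shared adaptor, was found in every gated type, and its order was not that of the receptors. Monocytes were at 2.02, 2.21, 1.80 and 2.19 (mean 2.06 ± 0.190, SD, n = 4) and lay wholly above C1q macrophages at 1.37, 1.52, 1.42 and 1.57 (mean 1.47 ± 0.0905, SD, n = 4). Cd209a dendritic cells (1.33 ± 0.252, SD, n = 4), neutrophils (1.003 ± 0.173, SD, n = 4) and cDC1 (0.907 ± 0.138, SD, n = 4) came next, with overlaps between neighbors. The place of neutrophils depended on the scaling. Their log2 difference from monocytes was -1.04 with library totals alone, but -0.17 and not called with the scaling of the tests below. T cells stood at 0.494 ± 0.0809 (SD, n = 4) and the stromal or tumor gate was lowest, at 0.192 to 0.386.

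The share of cells with at least 1 UMI was read against T cells, and each cell was also thinned to a fixed number of UMIs, because a cell with more UMIs is more likely to show any gene. Cells with fewer UMIs than that number were left out, so the thinned shares come from the deeper cells, at 2000 UMIs from 3142 of the 5837 neutrophils and 5887 of the 6735 T cells. Neutrophils had a median of 2099 UMIs per cell and T cells 4258. Cd14 was seen in 86.0% of neutrophils and 7.14% of T cells, and after thinning to 2000 UMIs in 86.7% and 3.31%. Tlr4 was seen in 28.1% of neutrophils and 1.97% of T cells (21.8% and 0.798% at 2000 UMIs), and Tlr6 in 16.4% and 1.35% (12.2% and 0.510%). Tlr2 was seen in 29.7% of neutrophils and 5.75% of T cells (25.0% and 2.33%) and Tlr13 in 22.3% and 2.95% (17.8% and 0.832%). For each of these the neutrophil share stood well above that of the deeper T cells.

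In cDC1, with a median of 10231 UMIs per cell, Tlr3 was seen in 61.9% of cells against 1.90% of T cells, and thinning to 2000 UMIs brought this to 22.4% against 0.696%. Tlr7 was seen in 58.1% of plasmacytoid dendritic cells, which had a median of 4094.5 UMIs, and in 8.82% of T cells (37.0% and 3.89% at 2000 UMIs). Tlr9 was seen in 4.89% of plasmacytoid dendritic cells and 0.668% of T cells (1.50% and 0.170%). Tlr1 was seen in 28.8% of C1q macrophages, with a median of 5379 UMIs, against 6.09% of T cells (12.8% and 2.40%). Myd88 was seen in 58.0% of monocytes, with a median of 4620.5 UMIs, and in 19.8% of T cells (33.3% and 8.19%), and T cells are known to express it. Thinning lowered the shares of these types, and each stayed above that of T cells at each depth.

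**Figure D2:**
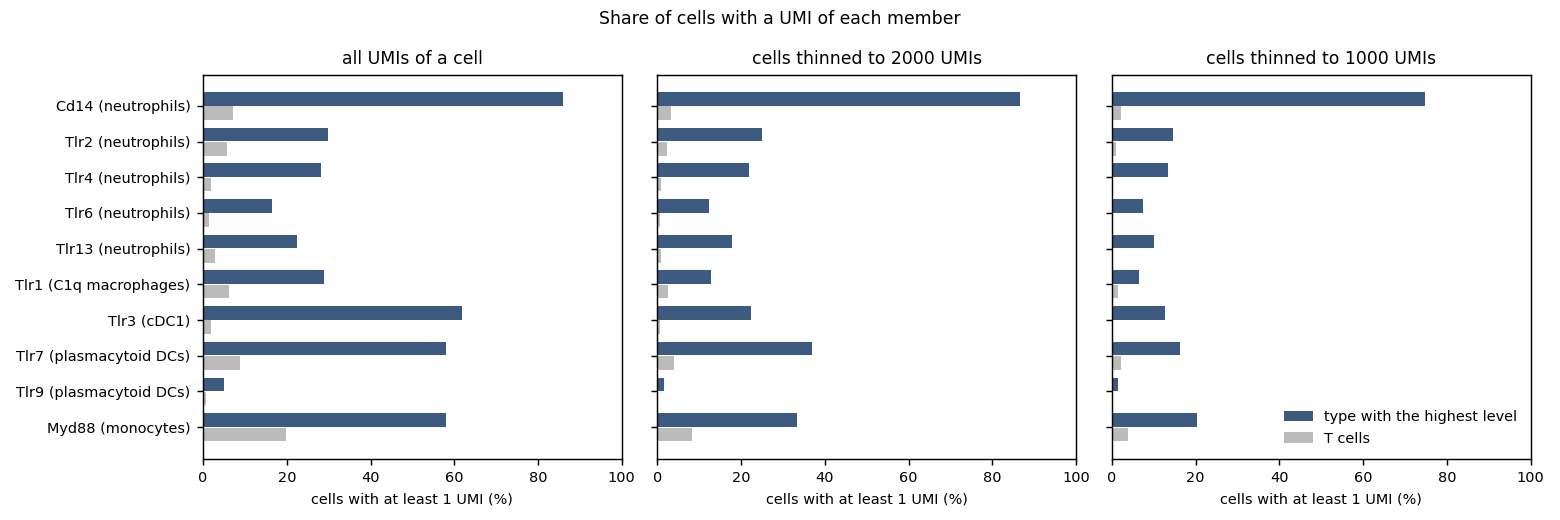
Percent of cells with at least 1 UMI of each gene in the type where its mean level is highest and in T cells, with all UMIs and with cells thinned to 2000 and to 1000 UMIs. The bar of the highest type exceeds the T cell bar for all 10 genes at every depth, and for Cd14 in neutrophils it is 86.0%, 86.7% and 74.7%.

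To test differences between types within tumors, the summed UMIs of both types in the 4 tumors were compared by edgeR's quasi-likelihood test. The tumor was fitted as a block, with TMM scaling and Benjamini-Hochberg adjustment over all genes tested. A gene is called higher or lower here when its adjusted p was under 0.05. Each difference is a log2 fold change ± SE. The samples are 4 tumors, and the block takes up differences in level between them. The p-values thus set a difference between types against how far it varied over these tumors, with the variation estimated partly over all genes. For 8 contrasts of neighboring types the share of all genes called was large, and the counts below are to be read against it. A gene entered a test when enough of the 8 sums passed a filter on low counts, and a called gene that the lower type alone would not have carried past that filter entered through the type where it was high, which favored a call. Those among the genes named are given with each contrast, and counts that hold them are descriptions.

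Neutrophils were higher than monocytes in 6 of the 10 genes and lower in 3, where 33.6% of all genes tested were higher and 34.7% lower (68.3% called). The higher ones were Cd14 (4.62 ± 0.10, adjusted p = 2.24e-15), Tlr4 (3.71 ± 0.12), Tlr6 (3.09 ± 0.18), Tlr13 (1.80 ± 0.10), Tlr2 (1.66 ± 0.10) and Tlr1 (0.39 ± 0.13, adjusted p = 0.0125). The lower ones were Tlr9 (-1.73 ± 0.35), Tlr3 (-1.17 ± 0.20) and Tlr7 (-0.55 ± 0.11), and Myd88 at -0.17 ± 0.09 was not called (adjusted p = 0.125). Tlr9, with 21 UMIs in neutrophils, entered through the monocytes. TMM scaling weighed here, since with library totals alone the median gene moved by -0.87. On that scale Tlr1 turned to -0.49 and was called lower, Myd88 was called lower at -1.04, so that 5 genes were higher and 5 lower, and Cd14, Tlr4, Tlr6, Tlr13 and Tlr2 kept their direction at 3.74, 2.83, 2.21, 0.92 and 0.78. Of all 9712 genes tested, 1577 were higher and 6684 lower on that scale. The Tlr1 call was also lost without the Lyve1CreCsf1rfl/fl run 1 tumor (0.28, adjusted p = 0.115).

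Of the other genes of the pathway, 20 were higher in neutrophils, 12 lower and 8 not called of 40 tested, with a median log2 fold change of 0.30 against -0.12 over all genes. Of the negative regulators, 7 of 8 were higher, with a median of 2.04. With library totals alone the pathway had 9 genes higher and 24 lower, and the negative regulators 5 higher and 2 lower. On that scale 1577 of all 9712 genes tested were higher and 6684 lower. Nfkbiz (4.12 ± 0.14), an atypical IkB protein that NF-kB induces, Tnfaip3 (3.77 ± 0.13), which encodes the deubiquitinase A20, and Nfkbia (3.70 ± 0.12), which encodes IkBa, led the rise. Of co-receptors, chaperones and trafficking genes 1 was higher and 4 lower of 6. Ly86 (-1.39 ± 0.10), which encodes MD-1, its receptor partner Cd180 (-0.99 ± 0.12) and the TLR3 adaptor Ticam1 (-0.96 ± 0.17) fell the most.

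Monocytes and C1q macrophages were closer. Monocytes were higher in Myd88 (0.57 ± 0.07, adjusted p = 1.10e-05) and Tlr2 (0.39 ± 0.10, adjusted p = 0.00537) and lower in Tlr1 (-0.65 ± 0.13) and Tlr4 (-0.61 ± 0.13), that is 2 of 10 each way, with 6 not called, where 31.4% of all genes were called, 13.8% lower among them. Cd14 at -0.01 ± 0.08 and Tlr7 at 0.15 ± 0.09 were among those not called. Without the Csf1rfl/fl run 2 tumor the Tlr2 call was lost (0.27, adjusted p = 0.0958). In the pathway 11 genes were higher, 5 lower and 24 not called of 40, where 17.6% of all genes were higher, and 5 of the 7 transcription factors tested were among the 11. With library totals alone it was 6 higher and 8 lower, where 1258 of all 9459 genes tested were higher and 1823 lower. Tlr5 (0.90 ± 0.30), the flagellin receptor, Irf5 (0.60 ± 0.08), a transcription factor downstream of MYD88, and the kinase gene Ikbkb (0.58 ± 0.08) were higher, and the scavenger receptor Cd36 (-2.22 ± 0.21), Cd180 (-0.81 ± 0.09) and Ly96 (-0.45 ± 0.09), which encodes the TLR4 partner MD-2, were lower. Tlr5 (29 UMIs in C1q macrophages) entered through the monocytes and Cd36 (71 UMIs in monocytes) through the C1q macrophages.

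Arg1 macrophages, compared with C1q macrophages, were lower in 5 of the 10 genes and higher in 1, against 29.0% of all genes called and 13.8% lower. Tlr1 (-1.59 ± 0.18), Tlr3 (-1.27 ± 0.34), Myd88 (-0.67 ± 0.12), Tlr7 (-0.65 ± 0.14) and Tlr13 (-0.63 ± 0.17) were lower, and Cd14 was higher (0.64 ± 0.17, adjusted p = 0.00960). Tlr3, with 37 UMIs in Arg1 macrophages, entered through the C1q macrophages. The Cd14 values crossed in the Lyve1CreCsf1rfl/fl run 2 tumor, where Arg1 macrophages were at 1.12 and C1q macrophages at 1.56. Neutrophil markers summed to 9.54 and 11.5 in Arg1 macrophages of the Csf1rfl/fl tumors and to 12.4 and 6.24 in those of the Lyve1CreCsf1rfl/fl tumors. In C1q macrophages they summed to 7.86, 6.24, 7.24 and 6.46 in the same order, and their part in the Cd14 difference was not tested. The Cd14 call was lost without either Csf1rfl/fl tumor (0.38 without run 1, adjusted p = 0.0925, and 0.62 without run 2, adjusted p = 0.0597), without the tumor as a block (adjusted p = 0.109) and with DESeq2 (adjusted p = 0.291). DESeq2 called 3 of the 6, Myd88, Tlr1 and Tlr3, and missed Tlr7 (adjusted p = 0.0515) and Tlr13 (adjusted p = 0.0699). The stricter gates also called 3, Cd14, Myd88 and Tlr1, with Tlr13 at -0.26, and without the doublets Tlr13 was lost as well (adjusted p = 0.106). Of the pathway 3 genes were higher, 9 lower and 25 not called of 37. With library totals alone 2 were higher and 9 lower, where 1185 of all 7954 genes tested were higher and 1143 lower. Tirap (1.07 ± 0.20), the bridging adaptor of TLR2 and TLR4, Nfkbia (0.67 ± 0.13) and the kinase gene Irak2 (0.42 ± 0.15, adjusted p = 0.0492) were higher, whereas Ly86 (-1.48 ± 0.14), Unc93b1 (-1.08 ± 0.10), which brings endosomal receptors to their compartment, and Cd180 (-1.08 ± 0.16) were lower.

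C1q macrophages were higher than Cd209a dendritic cells in 8 of 9 genes tested, where 38.3% of all genes were called and 19.4% were higher. The differences were 2.83 ± 0.36 for Tlr4, 2.62 ± 0.23 for Tlr13, 2.42 ± 0.19 for Cd14, 2.35 ± 0.26 for Tlr7, 1.98 ± 0.21 for Tlr1, 1.65 ± 0.38 for Tlr6, 1.60 ± 0.20 for Tlr2 and 1.37 ± 0.29 for Tlr3. Myd88 did not pass the test (0.09 ± 0.12, adjusted p = 0.592), and Tlr9 was too sparse to be tested. Cd209a dendritic cells had 13 UMIs each of Tlr4 and Tlr6, 28 of Tlr3, 30 of Tlr13 and 33 of Tlr7 over the 4 tumors, and these 5 of the 8 entered through the C1q macrophages, so the count of 8 was favored by the filter. Without the filter 8 of the 10 genes were called, a description only, since the share of all genes called without it is not given. The pathway had 15 genes higher, 3 lower and 19 not called of 37, and all 7 negative regulators tested were higher, Irak3 and Tollip among them having entered through the C1q macrophages. Cd36 (3.91 ± 0.55), Irak3 (2.94 ± 0.31), an inhibitory member of the IRAK family, and Ly96 (2.87 ± 0.24) were the most raised, and all 3 entered through the C1q macrophages, against 5, 13 and 22 UMIs in all Cd209a dendritic cells, and the NF-kB genes Nfkb1 (-1.32 ± 0.11) and Rel (-0.72 ± 0.12) and Ikbkb (-0.46 ± 0.12) were lower.

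Tlr3 was higher in cDC1 than in Cd209a dendritic cells by 3.97 ± 0.24 on the log2 scale (adjusted p = 1.06e-11), in all 4 tumors, and by 3.85 with library totals alone, which moved the median gene by -0.14. Cd14 (-1.19 ± 0.38), Tlr2 (-1.17 ± 0.34) and Myd88 (-0.42 ± 0.14) were lower, so that all 4 genes tested were called against 34.4% of all genes, and the other 6 had too few UMIs. Tlr3, with 28 UMIs in Cd209a dendritic cells, entered through cDC1, and Cd14 and Tlr2, with 53 and 40 UMIs in cDC1, entered mostly or wholly through the Cd209a cells, so that 4 of 4 is not a count over all members. DESeq2 called only Tlr3 (adjusted p = 0.107 for Cd14, 0.234 for Tlr2 and 0.187 for Myd88), and without the tumor as a block only Tlr2 and Tlr3 were called. Without the filter 6 of the 10 genes were called, with Tlr3 at 4.01, again with no share of all genes to read this against. Without the Csf1rfl/fl run 2 tumor only Tlr3 was called. Without the run 1 tumor of either genotype 2 genes were called, Tlr3 with Tlr2 for Csf1rfl/fl and with Myd88 for Lyve1CreCsf1rfl/fl, and without the Lyve1CreCsf1rfl/fl run 2 tumor Myd88 was lost (adjusted p = 0.0502). In the pathway 7 genes were higher, 8 lower and 15 not called of 30. Tlr11 (5.10 ± 0.41), a receptor for the parasite protein profilin, Cd36 (4.62 ± 0.46) and Irf8 (3.22 ± 0.13), which cDC1 need to develop, were higher. Cd209a dendritic cells had 4 UMIs of Tlr11 and 5 of Cd36 in all, so both entered through cDC1 and the size of these folds rests on very few counts. Nfkb1 (-1.46 ± 0.12), Nfkbiz (-1.34 ± 0.24), which entered through the Cd209a cells, and Ly86 (-1.19 ± 0.12) were lower.

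Mature dendritic cells, the Ccr7-expressing form, were lower than Cd209a dendritic cells in Myd88 (-1.36 ± 0.13, adjusted p = 2.16e-08) and Tlr2 (-1.30 ± 0.27) and higher in Tlr13 (0.90 ± 0.30, adjusted p = 0.0147), with 3 of 6 tested genes called against 60.0% of all genes. Their Tlr13 levels were 0.154, 0.165, 0.119 and 0.201 and those of Cd209a dendritic cells 0.132, 0.106, 0.108 and 0.0608, which is a small gap on few UMIs. Tlr13 (30 UMIs in Cd209a cells) and Tlr2 (73 in mature cells) entered through the type where they were higher. The Tlr13 call was lost without either run 2 tumor (adjusted p = 0.0721 and 0.0762), and without the Lyve1CreCsf1rfl/fl run 1 tumor Cd14 and Tlr7 were called as well, which made 5. Cd14 was also called lower without the doublets (-1.52, adjusted p = 8.32e-05). With library totals alone the median gene moved by -0.29 here, Tlr13 at 0.60 was not called, and of the 3 genes called none was higher. Of all 7717 genes tested, 1676 were higher and 3137 lower with that scaling. In this contrast 18 pathway genes were higher, 7 lower and 8 not called of 33, with 7 of 11 kinases and ubiquitin ligases and 5 of 7 transcription factors higher, where 30.8% of all genes were higher. Irf8 (2.82 ± 0.11), Ly96 (2.76 ± 0.24) and Traf3 (2.11 ± 0.20), a ubiquitin ligase of the TRIF and MYD88 pathways, rose the most, Ly96 having entered through the mature cells (22 UMIs in Cd209a cells). Pik3ap1 (-1.83 ± 0.15), an adaptor to phosphoinositide 3-kinase, Cd180 (-1.69 ± 0.32) and Hsp90b1 (-1.67 ± 0.09), the chaperone that Toll-like receptors need to fold, fell the most, Cd180 having entered through the Cd209a cells.

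Plasmacytoid dendritic cells were higher than Cd209a dendritic cells in Tlr7 (4.28 ± 0.25, adjusted p = 2.65e-09) in all 4 tumors and lower in Myd88 (-1.18 ± 0.17). These were 2 of 3 genes tested, against 48.1% of all genes called, and the third, Cd14 at -0.50 ± 0.32, was not called. The pathway had 13 genes higher, 6 lower and 8 not called of 27. All 4 co-receptor, chaperone and trafficking genes tested were higher, as were Tlr12 (4.89 ± 0.43), a relative of TLR11, Irf8 (3.93 ± 0.15) and Cd180 (3.27 ± 0.20). Cd209a dendritic cells had 33 UMIs of Tlr7, 6 of Tlr12 and 62 of Cd180 in all, and these genes entered through the plasmacytoid cells, as Socs1 (30 UMIs in plasmacytoid cells) did mostly through the Cd209a cells. Socs1 (-1.18 ± 0.30), a suppressor of cytokine signaling, Rel (-0.99 ± 0.19) and Nfkb1 (-0.96 ± 0.12) were lower.

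Between lymphocytes the levels were low. NK cells were higher than T cells in Tlr4 (1.15 ± 0.27, adjusted p = 0.00433), at 0.0808 ± 0.0340 against 0.0387 ± 0.00777 (SD, n = 4), and lower in Tlr1 (-1.90 ± 0.35) and Tlr7 (-1.47 ± 0.21), with 3 of 9 genes tested called against 27.5% of all genes, a share near that background. T cells had Tlr7 at 0.204, 0.182, 0.152 and 0.222 and NK cells at 0.0744, 0.0643, 0.0683 and 0.0393, without overlap. Tlr1, with 22 UMIs in NK cells, entered through the T cells. With library totals alone, which moved the median gene by -0.13, 1 gene was higher and 4 were lower, Tlr2 and Myd88 among them. Of all 11086 genes tested, 1048 were higher and 2263 lower with that scaling. Tlr2 was also called lower without a filter on low counts (-0.74, adjusted p = 0.00336), with cells whose higher hashtag was at least 3 times the other (-0.82, adjusted p = 0.0309) and without the Csf1rfl/fl run 1 tumor (-1.18, adjusted p = 0.00770). Of the pathway 10 genes were higher, 9 lower and 19 not called of 38, or 7 higher and 10 lower with library totals alone. Irf8 (2.46 ± 0.08), Tlr12 (1.75 ± 0.32) and Pik3ap1 (1.19 ± 0.11) were higher, and Ticam2 (-1.81 ± 0.42), the adaptor between TLR4 and TRIF, Cd180 (-1.52 ± 0.28) and Rel (-0.54 ± 0.09) were lower. Tlr12 entered through the NK cells and Ticam2 through the T cells.

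**Figure D3:**
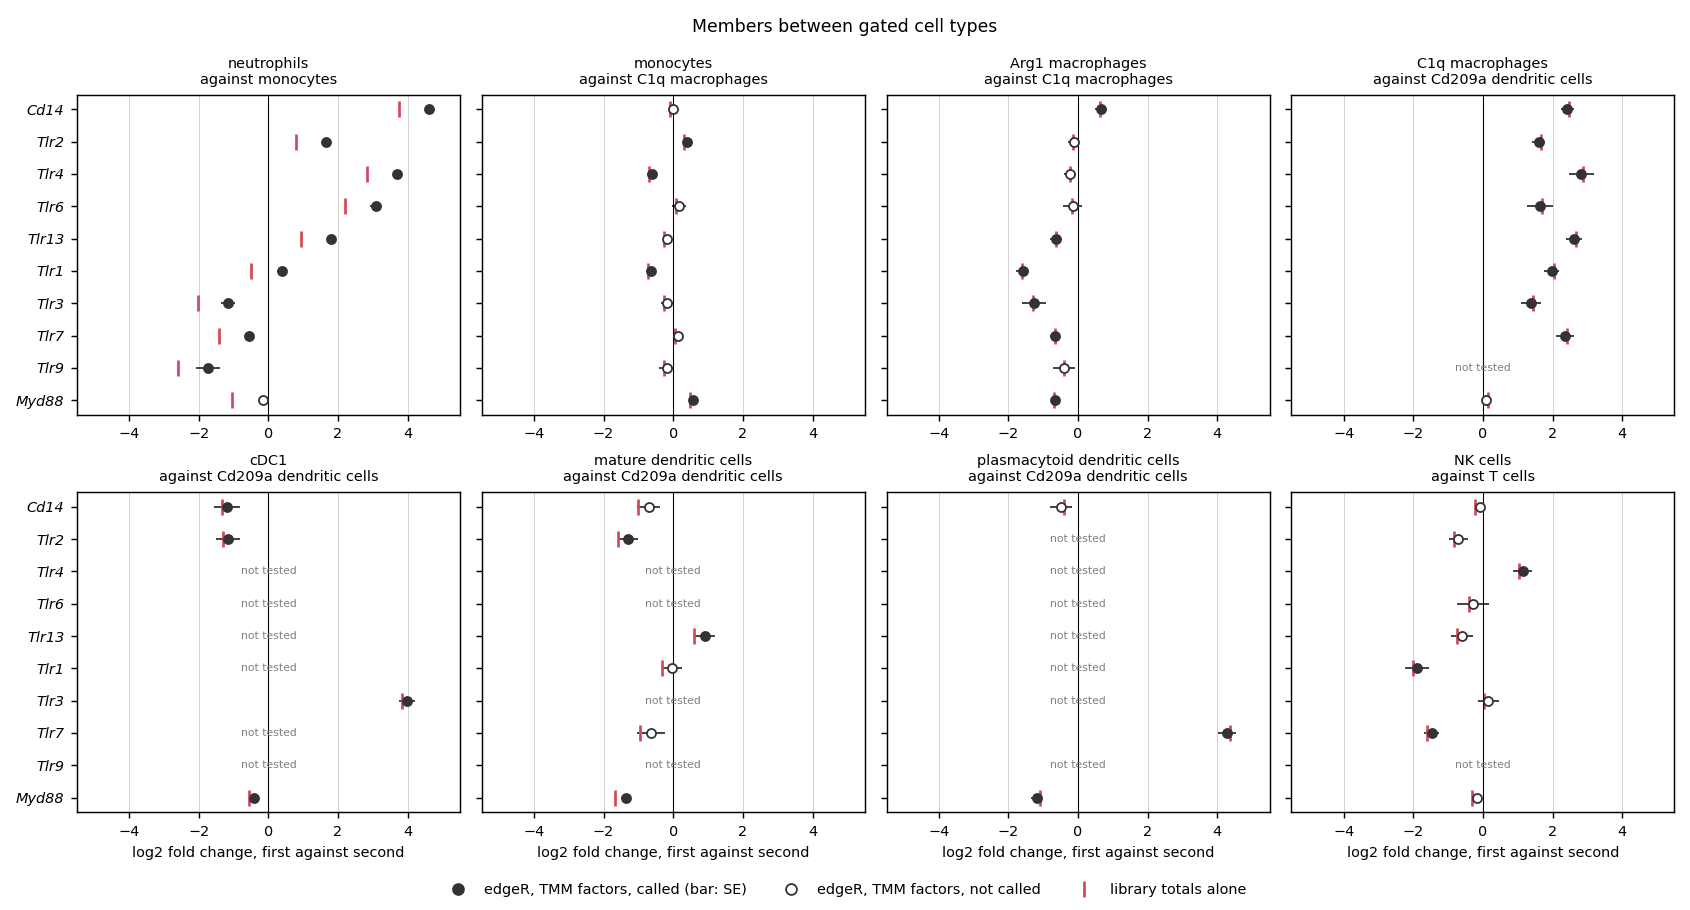
Difference of each gene between 2 cell types as log2 fold change (first type minus second), with bars of 1 SE, 1 panel per contrast, filled points for genes called at an adjusted p under 0.05 by edgeR and a red tick for the value with library totals alone. In neutrophils against monocytes the red ticks lie to the left of the points, and Tlr1 goes from 0.39 to -0.49.

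The study's main comparison was of genotypes. Within each of 13 gated types with at least 20 cells in every tumor, no Toll-like receptor, Cd14 or Myd88 passed the test between Lyve1CreCsf1rfl/fl and Csf1rfl/fl tumors. Over 83 tests of the 10 genes, 0 were called by edgeR's quasi-likelihood test, 0 by DESeq2 and 0 with the run as a block, 5 had an unadjusted p under 0.05, and the lowest adjusted p was 0.828. The share of all genes called was 0% in 10 of the 13 types, 0.0128% in Arg1 macrophages, 0.0158% in cDC1 and 0.00994% in regulatory T cells. Fitted differences ran from -1.03 to 1.57 on the log2 scale with a median of -0.10 and SEs of 0.18 to 0.61. An exact permutation test of 2 tumors against 2 could not go below a p of 0.333, a floor that does not hold for edgeR. With 2 tumors per genotype and SEs of this size, a missing call does not show equal levels.

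**Figure D4:**
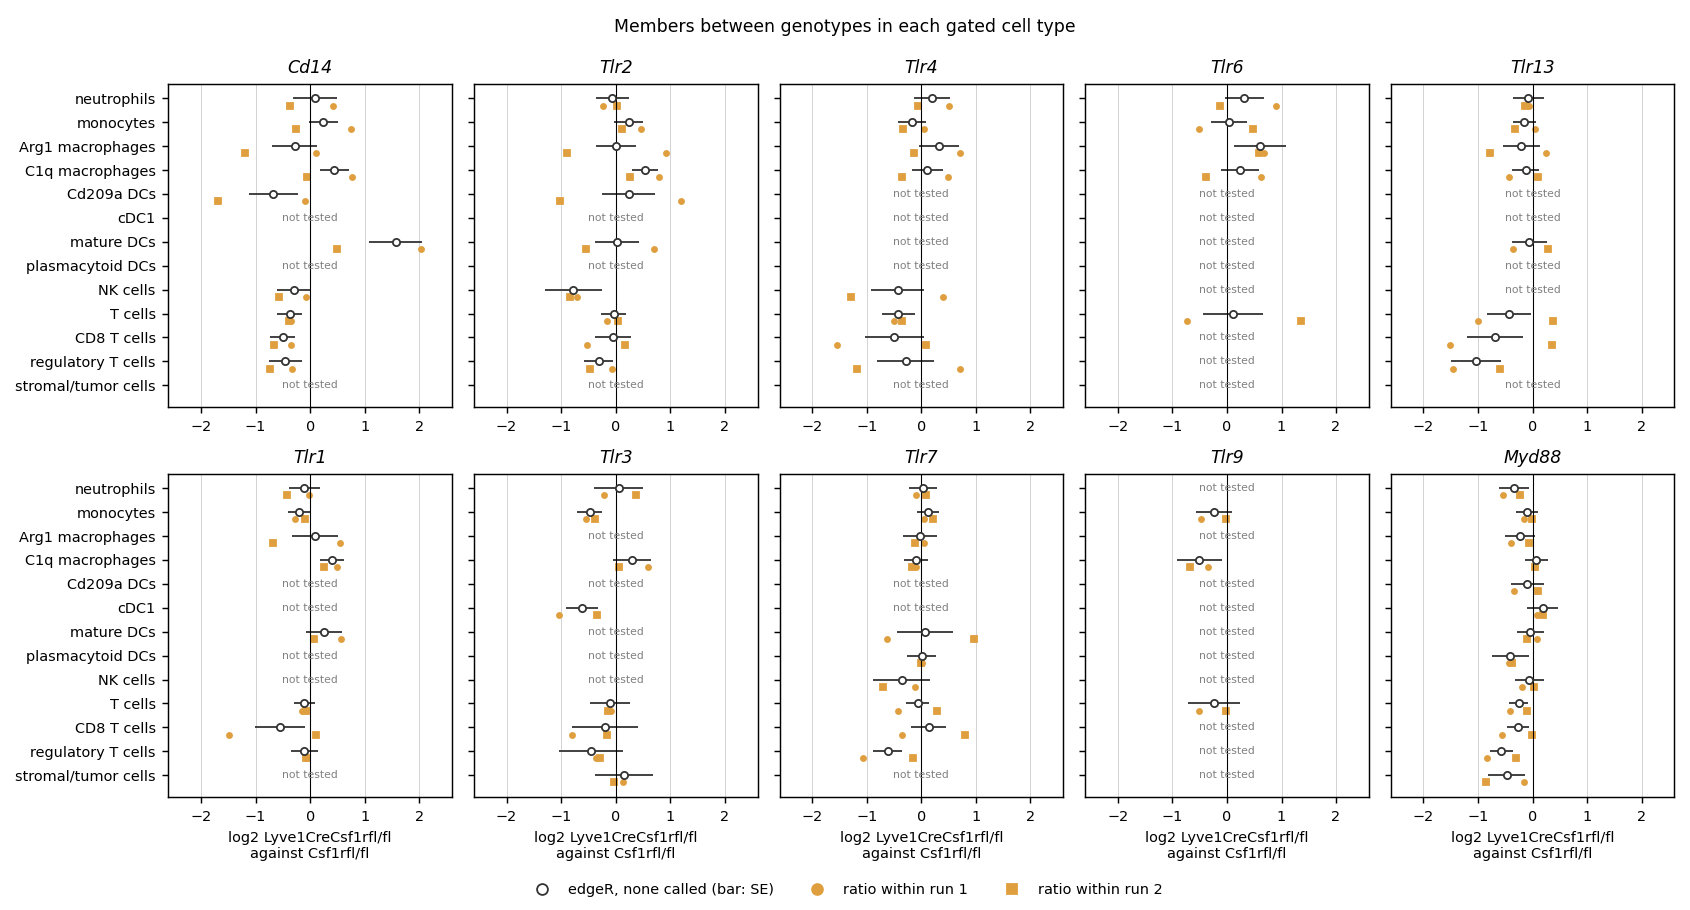
Difference of each gene between Lyve1CreCsf1rfl/fl and Csf1rfl/fl tumors in each cell type where it was tested, as log2 fold change with bars of 1 SE from edgeR, beside the log2 ratio of the levels within each of the 2 runs. None was called, and the furthest point is Cd14 in mature dendritic cells at 1.57.

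In the macrophages and monocytes themselves no difference by genotype was called. For C1q macrophages the largest was Tlr2, at 0.547 and 0.835 in the Csf1rfl/fl tumors and 0.947 and 0.997 in the Lyve1CreCsf1rfl/fl tumors. Both Lyve1CreCsf1rfl/fl values were the higher, but the fitted difference of 0.54 ± 0.23 had an adjusted p of 0.9995 by edgeR, and the log2 ratio within the runs was 0.79 and 0.26. In these cells the monocyte markers summed to 52.1 and 53.6 in Csf1rfl/fl against 65.9 and 66.1 in Lyve1CreCsf1rfl/fl tumors, with none of the 7 at 0. The markers of C1q macrophages themselves summed to 66.4 and 51.6 against 46.9 and 41.7. The part of either list in this difference was not tested. Over all 10 genes the differences were -0.50 to 0.54 in C1q macrophages, -0.48 to 0.24 in monocytes and -0.34 to 0.32 for the 9 tested in neutrophils. In Arg1 macrophages the 8 tested had differences of -0.28 to 0.61, the largest for Tlr6, at 0.0804 and 0.128 in Csf1rfl/fl against 0.128 and 0.192 in Lyve1CreCsf1rfl/fl tumors on 10 to 15 UMIs per tumor (0.61 ± 0.48, adjusted p = 0.9994 by edgeR).

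In dendritic cells the receptors that marked each type had the following values by genotype. Tlr3 in cDC1, at 1.57 and 1.65 against 0.761 and 1.29, gave -0.62 ± 0.29 (adjusted p = 0.9997 by edgeR), with -1.05 and -0.35 within the runs. Tlr7 in plasmacytoid dendritic cells, at 2.11 and 2.47 against 2.13 and 2.46, gave 0.01 ± 0.27, and here the tumors of a run resembled each other more than those of a genotype. Cd14 in mature dendritic cells had 15 and 19 UMIs in Csf1rfl/fl and 102 and 17 in Lyve1CreCsf1rfl/fl tumors, so that the difference of 1.57 ± 0.49 (adjusted p = 0.9996 by edgeR) was 2.04 within run 1 and 0.49 within run 2. It rested on the Lyve1CreCsf1rfl/fl run 1 tumor, and was called without the run 2 tumor of that genotype (2.08, adjusted p = 0.000446), a test in which 1 tumor stands for its genotype and is assumed to vary like the 2 Csf1rfl/fl tumors. Without the Lyve1CreCsf1rfl/fl run 1 tumor it was 0.42. Without the doublets the levels were 0.0516 and 0.0608 against 0.122 and 0.0843, their mean over the 4 tumors fell from 0.157 to 0.0797, and the difference was 0.93 (adjusted p = 0.999978 by edgeR). Neutrophil markers summed to 3.36 and 2.97 UMIs per 10000 in the Csf1rfl/fl and to 4.96 and 3.57 in the Lyve1CreCsf1rfl/fl tumors in this gate, with none of the 8 at 0, and their part in the difference was not tested. Cd14 in cDC1, at 0.425, 0.0630, 0.0614 and 0.0579, was too sparse for the test of all 4 tumors. The call it had without the Csf1rfl/fl run 2 tumor (-2.77) rested on the high value of the Csf1rfl/fl run 1 tumor. Cd14 entered that fit through this same high value, which favored a call, so the call is a description. The Csf1rfl/fl run 1 tumor then stands alone and is assumed to vary like the 2 Lyve1CreCsf1rfl/fl tumors. In the same order of tumors monocyte markers summed to 29.5, 17.2, 17.5 and 15.2 in this gate and neutrophil markers to 3.20, 1.78, 2.29 and 2.49, none of either list being at 0, and their part was not tested.

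In regulatory T cells the 8 genes tested had differences of -1.03 to -0.11, all below 0 and none called. This was not particular to them, since the 5 tested in NK cells were also all below 0, at -0.78 to -0.06. Differences were -0.43 to 0.12 in T cells (median -0.17) and -0.69 to 0.13 in CD8 T cells (median -0.38). In regulatory T cells Myd88 stood at 0.622 and 0.645 against 0.347 and 0.522, a difference of -0.57 ± 0.21, and Tlr7 at 0.311 and 0.245 against 0.147 and 0.219, a difference of -0.62 ± 0.27. Markers of monocytes summed to 23.4 and 18.2 UMIs per 10000 in the Csf1rfl/fl and to 9.76 and 11.7 in the Lyve1CreCsf1rfl/fl tumors in this gate, and those of C1q macrophages to 0.697 and 0.626 against 0.396 and 0.415, with no marker of either list at 0. Neutrophil markers summed to 5.33 and 4.23 against 5.37 and 2.94, and B cell markers to 0.108 and 0.156 against 0.141 and 0.313. Without the doublets the mean level of Tlr13 in this gate was 0.0227, against 0.0666 with them. Their part in these values was not tested. The 1 gene of all those tested that was called in this gate was the monocyte marker Chil3 (-2.56 ± 0.25, adjusted p = 0.0332).

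The other 44 genes of the pathway gave 0 calls in 450 tests by edgeR, with 11 at an unadjusted p under 0.05, and 1 by DESeq2. That 1 was Ly86 in regulatory T cells (-1.57 ± 0.39, adjusted p = 0.0498 by DESeq2 and 0.248 by edgeR). Whether the effect of genotype differed between types was tested by an interaction term in the 8 contrasts, and of 66 tests of the 10 genes 0 were called by edgeR, 6 had an unadjusted p under 0.05 and the lowest adjusted p was 0.232, for Tlr3 between Arg1 and C1q macrophages (-2.25 ± 0.64).

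How far the genes shared a pattern was described by Pearson's r of log2(UMIs per 10000 + 0.1) over 44 sums, 11 types in 4 tumors, which share their tumors, runs and depth, so that no p is given. Tlr4 and Tlr6 were the most alike of the 10 (r = 0.95), followed by Cd14 and Tlr4 (0.939) and Tlr2 and Tlr13 (0.933), and Tlr3 and Tlr7 were the least (-0.196). Over 10444 genes, the nearest to Cd14 were Ptgs2 (0.971), which encodes cyclooxygenase-2, and the C-type lectin genes Clec4e (0.969) and Clec4d (0.968). Those nearest to Tlr2 were the chemokine receptor gene Ccr1 (0.971), Mefv (0.961), which encodes pyrin, and Gda (0.959), and those nearest to Tlr4 were Gla (0.957), Dmxl2 (0.953) and Hcar2 (0.953). Tlr6 was nearest to Ptgs2os2 (0.953), E230013L22Rik (0.95) and Tlr4.

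The other genes had the following neighbors. Tlr1 was nearest to Clec4a3 (0.935), Clec4a1 (0.933) and Sirpb1a (0.924), of which the first and second encode C-type lectins. Tlr3 was nearest to Rnf144b (0.864), Rab7b (0.850) and St3gal5 (0.844), Tlr7 to Tom1 (0.945), B3gnt8 (0.911) and Tcirg1 (0.906), and Tlr9 to Pld4 (0.889), an endosomal exonuclease gene, Slc15a4 (0.876), an endolysosomal transporter gene, and Mfsd12 (0.875). The highest mean level of Tlr9 in any type was 0.132, close to the 0.1 added before the log, so its neighbors rest on sparse counts. Tlr13 was nearest to Cd300ld (0.953), Irak3 (0.949) and A930007I19Rik (0.943), and Myd88 to Gpr141 (0.931), Gnb2 (0.927) and Tnfrsf21 (0.916).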

How the data were processed

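Gene expression was measured by 10x Chromium 3′ sequencing in 2 pools of 2 tumors. Per the labels and the submitters' processing notes, reads were aligned to mm10 with Cell Ranger 6.0.1. The authors deposited UMI counts (cells in rows, genes in columns) and hashtag antibody counts, neither of them normalized. The authors also deposited a table of corrected scores (rounded SCTransform values for 18449 genes), which was used only to learn which 28429 cells they kept. A cell belonged to the tumor whose hashtag was the higher after a centered log ratio transform. The tumors are thus known from hashtags and the authors' table of them, since each library of the series is a pool.

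Cells were gated by UMIs of fixed marker lists (at least 2 to 4 markers with a UMI, and for neutrophils a marker level of at least 100 UMIs per 10000). In all, 3461 cells were given no type and 2788 were set aside as conflicts between gates, and none of these were used. Passing the monocyte or Arg1 gate beside an earlier gate was not counted as a conflict. Doublets (4977 by Scrublet in scanpy 1.11.5, expected rate 0.2) were kept, and left out in an alternative. UMIs were summed per tumor and type and tested with edgeR 4.0.16 (R 4.3.3; filterByExpr, TMM, glmQLFit, glmQLFTest), where every tumor had at least 20 cells, with Benjamini-Hochberg adjustment over all genes and a threshold of 0.05. The scripts were tested on simulated data. DESeq2 1.42.0, other scalings, filters, gates and left-out tumors were the alternatives, and the scaling by library totals alone was chosen after seeing the data. Tumors of 1 run share a run by the labels, and their deviations from the genotype means correlated at r = 0.15 to 0.42 over genes in the 13 types, so the run was also fitted as a block.

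The genes and lists were chosen with earlier results of these data known. All 10 genes are named, with, of 44 other pathway genes in 6 lists, up to 3 that rose and 3 that fell the most per contrast among those called and moving the same way in every tumor, any called by genotype, and the 3 most alike each of the 10 among genes with at least 500 UMIs.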

Additional observations from a re-analysis of the deposited data

How the results depend on the processing

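Under the alternatives, 39 differences called between types and the 5 by genotype with an unadjusted p under 0.05 kept direction and side of the threshold 473 times, lost the call 31 times, gained it 2 times and turned 1 time. Outside these, a gene not called was called 13 times, and one too sparse for the test 7 times, between types, and Cd14 1 time by genotype (cDC1, given above). The 1 that turned was Tlr1 in neutrophils against monocytes, at -0.49 with library totals alone, a scaling chosen after seeing the data that moves the median gene by -0.87. That scaling called 5 genes in NK against T cells, where TMM called 3. With DESeq2, 3 genes were called in Arg1 against C1q macrophages (6 by edgeR) and 1 in cDC1 against Cd209a dendritic cells (4 by edgeR), and stricter gates called 3 in the former. Without the tumor block 2 were called in cDC1. Without a filter on low counts 5 were called in mature (3 with it) and 5 in plasmacytoid dendritic cells (2 with it), and 1 by genotype in mature dendritic cells (Cd14, adjusted p = 0.0182 by edgeR). Leaving out 1 tumor at a time gave 1 to 3 calls in cDC1 and 2 to 5 in mature dendritic cells against Cd209a dendritic cells, and 0 to 1 by genotype in cDC1 and in mature dendritic cells. Apart from library totals alone, the share of all genes called is not given for these alternatives, so their counts are descriptions. The cause of these changes was not tested. The replicate block (the run as a term, from the pairing of tumors by run) called 0 of the 10 genes by genotype in all 13 types.

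Without doublets 13 of 64 mean levels resting on at least 100 UMIs moved by over 1.5 times, and 2 with stricter gates. The Cd14 level in neutrophils was 25.9 without doublets, and in T cells Tlr2 went from 0.146 to 0.0740 and Tlr13 from 0.0573 to 0.0172, and in NK cells Cd14 from 0.233 to 0.0888. Thinned to 2000 and 1000 UMIs, the share of cells with a UMI was 12.8% and 6.58% for Tlr1 in C1q macrophages, 22.4% and 12.8% for Tlr3 in cDC1, 33.3% and 20.2% for Myd88 in monocytes, 37.0% and 16.4% for Tlr7 and 1.50% and 1.49% for Tlr9 in plasmacytoid dendritic cells, and in neutrophils 17.8% and 10.1% for Tlr13, 25.0% and 14.7% for Tlr2, 21.8% and 13.5% for Tlr4 and 12.2% and 7.32% for Tlr6, while Cd14 at 1000 UMIs was 74.7%. Fewer UMIs alone lower such shares. Stricter gates left under 20 cells of a tumor among Cd209a dendritic cells and the stromal or tumor gate, and so did leaving out doublets in the latter, so these tests were not run. Depth limits Tlr9, and 2 tumors per genotype limit all genotype tests.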

Other observations

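Types with under 20 cells in some tumor entered no comparison. B cells numbered 7 and 2 in the Csf1rfl/fl tumors and 5 and 51 in the Lyve1CreCsf1rfl/fl tumors of runs 1 and 2. By the study's methods, clusters of lymphocytes drawn almost wholly from the Lyve1CreCsf1rfl/fl run 2 tumor were removed from all tumors, and whether the cells counted here are those left after that step was not given in the sources used here, so these numbers are no measure of the share of B cells in a tumor. In the 51 cells of the last tumor Tlr7 had 32 UMIs (0.817 per 10000), Myd88 51 (1.30 per 10000) and Tlr9 5 (0.128 per 10000), and Cd14, which B cells should lack, had 54 (1.38 per 10000). The B cells carried a median of 5 of 7 monocyte markers at 66.1 UMIs per 10000 beside 4 of 5 B cell markers at 13.1, and the part of these cells' other markers in the values was not tested. Scrublet called 26.2% of the 65 B cells doublets. The 49 gamma delta T cells held no UMI of Tlr4 or Tlr6 in any tumor, and 0 to 6 UMIs of Myd88 per tumor. They had a median of 3214 UMIs per cell, and all T cells held Tlr4 at 0.0387 and Tlr6 at 0.0263 per 10000. In so few cells the absence of such sparse genes tells little.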
